A study of Mus musculus with 2 samples.

Results

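The interferon-inducible genes described here were the guanylate-binding protein genes Gbp2, Gbp2b and Gbp3, the antiviral effector genes Bst2, Oas1a, Isg15, Ifitm2 and Ifitm3, and the transcription factor gene Irf1. They were taken as all probe sets that the platform annotation assigned to exactly 1 of these 9 symbols. The rule gave 9 probe sets for 8 genes, out of 22626 non-control probe sets and 12393 genes with a probe set of their own. Isg15 had no probe set of its own, because the only probe set that carried its symbol also carried Gm9706. The 9 genes were chosen by their measured differences between the same arrays, so their values are a description and carry no test.

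RNA was measured on 2 microarrays, 1 from Id1 knockout (Id1 KO, Id1-/-) and 1 from wild-type (WT) mouse embryonic stem (ES) cells. Both cultures grew on gelatin with serum and LIF (leukaemia inhibitory factor, which keeps mouse ES cells self-renewing). The labels name no interferon treatment, feeder layer, strain, clone, passage or deleted exon. The comparison asks which transcripts differ when Id1, a helix-loop-helix protein that sequesters E proteins, is absent from self-renewing ES cells. With 1 array per genotype there was no replicate check and no p-value. Genotype, culture, clone, array and a difference in sex-chromosome genes, given below, cannot be told apart.

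Interferons are secreted proteins that signal through cell-surface receptors, the JAK kinases and STAT transcription factors. Type I interferons act on interferon-stimulated response elements in promoters, and interferon gamma acts on GAS elements. Guanylate-binding proteins (GBPs) are large GTPases that attack intracellular pathogens and are classical targets of interferon gamma and of IRF1. Undifferentiated ES cells are known for a weak interferon response, while they express several IFITM proteins without interferon.

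The promoters of the members show which interferon response letters lie near each start site. RefSeq promoter windows (build GRCm38.p6, 300 bases, 250 before and 50 after the start) were found for all 9 symbols. They were searched for the core of the interferon-stimulated response element, GAAANNGAAA, or TTTCNNTTTC on the opposite strand, and for the GAS letters TTCNNNGAA, which read the same on both strands. Matches of one motif may overlap each other or the other motif. The 3 GBP genes are shown first because their deposited values had the widest ratios between the arrays among the members. In these stretches the response element is in capitals and all bases lie before the start.
Gbp2, chr3:142620549-142620662, plus strand: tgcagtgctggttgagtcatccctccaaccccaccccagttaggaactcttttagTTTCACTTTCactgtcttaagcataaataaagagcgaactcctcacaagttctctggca
Gbp2b, chr3:142594655-142594774, plus strand: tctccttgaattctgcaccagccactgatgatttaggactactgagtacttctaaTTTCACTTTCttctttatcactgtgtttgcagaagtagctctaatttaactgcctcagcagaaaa
Gbp3, chr3:142559944-142560043, plus strand: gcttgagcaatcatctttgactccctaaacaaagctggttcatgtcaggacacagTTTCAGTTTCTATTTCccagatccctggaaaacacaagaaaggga

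Gbp2 and Gbp2b held the same 10 letters, TTTCACTTTC, from 59 to 50 bases before the start in Gbp2 and from 137 to 128 bases before it in Gbp2b. Gbp3 held 2 overlapping matches that began 45 and 39 bases before the start. The response element stretches of the other effector genes are shown because Bst2, Oas1a and the Ifitm genes went different ways on the arrays. The matches of Bst2, Oas1a, Isg15 and Ifitm2 lie before the start. Both matches of Ifitm3 lie after it, in the transcribed part, at bases 3 to 12 and 20 to 29.
Bst2, chr8:71537577-71537612, minus strand: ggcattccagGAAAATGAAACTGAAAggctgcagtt
Oas1a, chr5:120907523-120907552, minus strand: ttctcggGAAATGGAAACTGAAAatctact
Isg15, chr4:156200865-156200906, minus strand: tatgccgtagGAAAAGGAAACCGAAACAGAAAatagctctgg
Ifitm2, chr7:140955988-140956017, minus strand: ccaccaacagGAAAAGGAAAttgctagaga
Ifitm3, chr7:141010715-141010743, minus strand: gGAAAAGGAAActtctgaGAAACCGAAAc

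Irf1 held no match to the response element in its windows, and its GAS match is shown in capitals, 90 to 82 bases before the start.
Irf1, chr11:53769914-53769942, plus strand: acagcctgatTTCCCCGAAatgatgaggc

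In all, 8 of the 9 members held the response element letters in a window, against 3.99% of 27025 genes with windows of this length (3.44% of 32851 windows). GAS letters were found in 4 of 9 members (Bst2, Oas1a, Irf1 and Ifitm3), against 9.55% of genes and 8.30% of windows. The response element letters were present in members that were higher, in Oas1a, which was lower, and in both Ifitm genes, which differed by less than 2-fold. A match is a run of letters and does not show that a factor binds there.

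Intensities are the deposited linear values, 1 per probe set. For differences, log2 values were centred on each array's median (155.0 on the Id1 KO array, 152.5 on the WT array) and floored at their 25th percentile, an intensity of 48.4 and 47.6, respectively. Where 1 value lay at the floor, the difference is given as a bound. The brightest probe set stood for a gene, which was counted when the brighter of its values reached its array's median. Of the 8 genes with a probe set, 7 passed and Gbp3 did not. Of the 7, 3 were at least 2-fold higher in the knockout (Gbp2, Gbp2b and Bst2), where 3.92% of 7369 genes were, and 1 was at least 2-fold lower (Oas1a), where 3.92% were also lower. The other 3, Irf1, Ifitm2 and Ifitm3, were neither. The differences between these arrays chose the members, so nothing is read from those shares. The median log2 difference of the 7 was 0.60, beside -0.01 for all 7369 genes. The smallest difference past 2-fold among the members was 1.80 on the log2 scale in size (Oas1a), and the largest under 2-fold was 0.60 (Irf1).

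**Figure D1:**
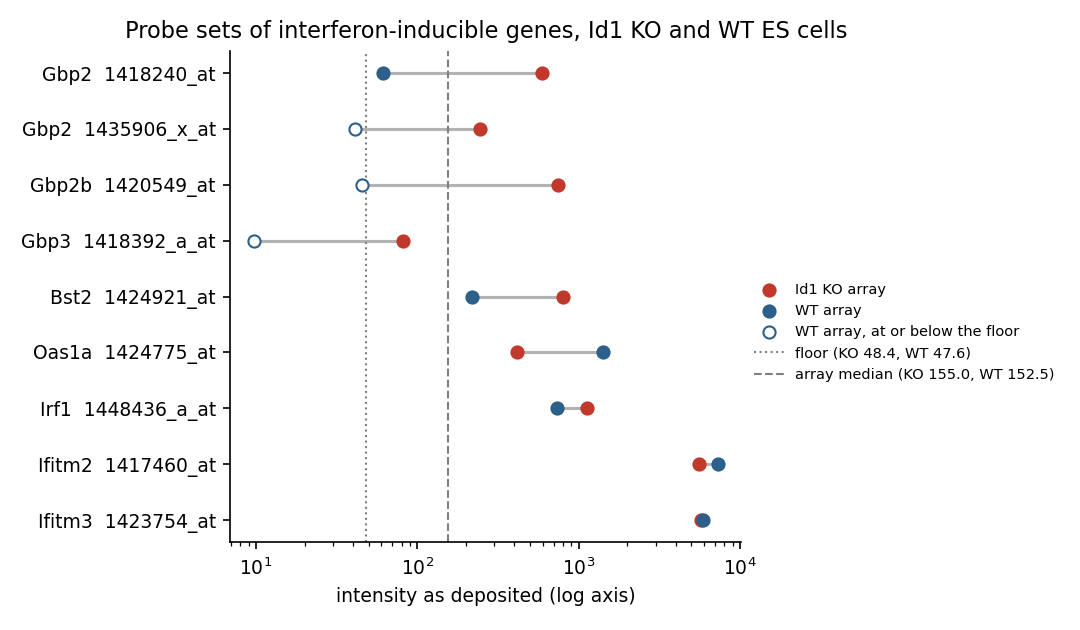
Intensity (log axis) of the 9 probe sets of the members on the Id1 KO array (red) and the WT array (blue), with open circles at or below the floor (dotted line, drawn at the knockout value) and the knockout array median dashed. The Gbp2, Gbp2b and Bst2 probe sets sat to the right in the knockout, Oas1a to the left, and the circles of Ifitm3 overlapped at 5763 and 5941.

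Of the guanylate-binding protein genes, Gbp2b and Gbp2 were at least 2-fold higher in the knockout. Gbp2b, which encodes the mouse GBP also called Gbp1, had an intensity of 741 in the knockout against 45.3 in the wild type. The wild-type value was under the floor, so the difference was at least 15.3-fold (log2 difference at least 3.94). The bound depends on the floor and was 2.87 on the log2 scale with a floor at the 40th percentile and 4.01 with one at the 10th. Without floor and centring the deposited values differed 16.4-fold.

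Gbp2, a GTPase that coats pathogen vacuoles, was measured by 2 probe sets. Its brighter probe set read 589 in the knockout against 61.7 in the wild type, which is 9.38-fold higher (log2 difference 3.23), place 4 from the top among the 7369 genes. The other read 245 and 41.1, at least 5.07-fold higher, with the wild-type value under the floor. Both probe sets of Gbp2 went the same way, and in both the wild-type signal lay near or under the floor, so the size of the fold is uncertain. The SD of the log2 difference between passing probe sets of 1 gene had a median of 0.22 over 2567 genes with several. It compares probe sets on the same arrays and holds no variation between cultures, clones or arrays.

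Gbp3, a further GBP of the same chromosome, read 81.8 in the knockout against 9.67 in the wild type. The knockout value was above the floor but under the array median, so Gbp3 did not enter the count, and its difference was at least 1.69-fold (log2 0.76). The deposited values differed 8.46-fold, but the wild-type value was in the range where the floor applies. With a floor at the 10th percentile in place of the 25th, the log2 difference of Gbp3 was 2.62, and with a floor at the 40th it was 0. Gbp2, Gbp2b and Gbp3 are related in sequence, and the probes were not analysed here, so signal shared between paralogs was not tested.

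Other GBP genes were dim on both arrays. Of 8 listed, 3 had a probe set of their own and none passed the filter. Gbp7, which lies beside Gbp3, read 120 in the knockout against 50.1 in the wild type by one probe set, and 80.6 and 36.2 by the other. Gbp6 and Gbp8, which lie on chromosome 5, were at the floor on both arrays, at 3.07 and 2.89 and at 16.3 and 3.32. These dim probe sets were not counted as higher or lower.

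**Figure D2:**
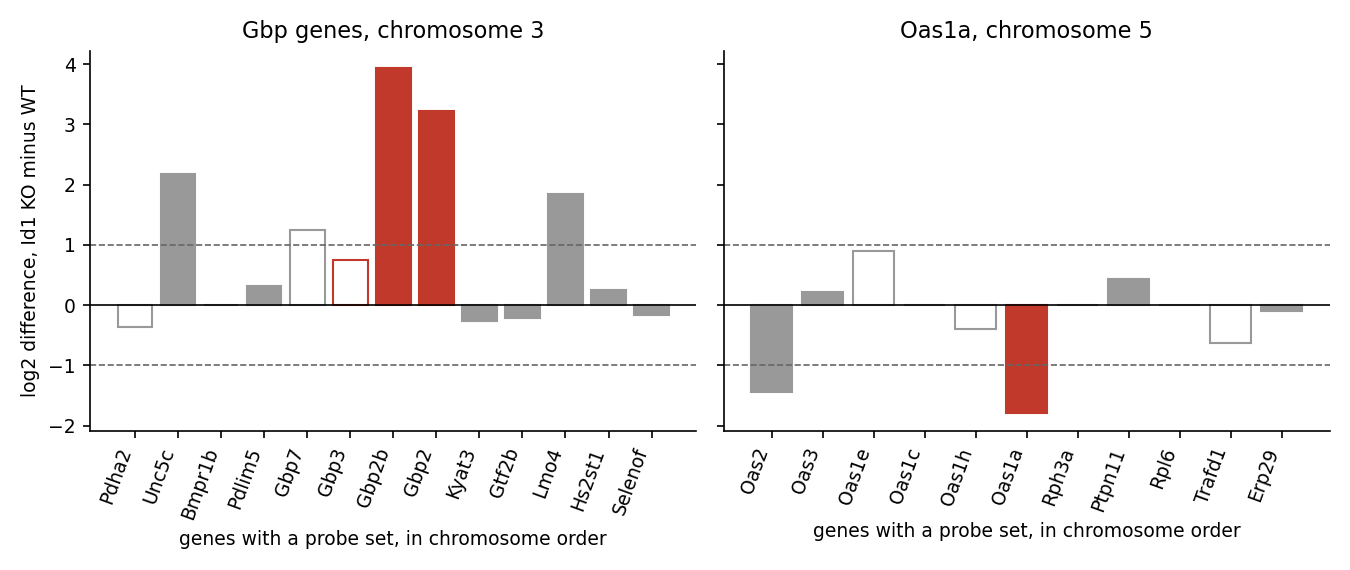
Log2 difference (Id1 KO minus WT) of genes with a probe set, in chromosome order, around the Gbp genes of chromosome 3 (left) and around Oas1a on chromosome 5 (right), with members in red, open bars for genes below the brightness filter and dashed lines at 2-fold. The tall bars of Gbp2b and Gbp2 stood beside Kyat3 and Gtf2b, at -0.26 and -0.21, and Oas1a and Oas2 were both past -1.

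The genes around the GBP genes of chromosome 3 did not share one direction. Kyat3 and Gtf2b, the next genes with a probe set after Gbp2, had log2 differences of -0.26 and -0.21, and Pdlim5, the nearest gene outside the GBP cluster on the other side, had 0.32. Farther out, Lmo4, which encodes a LIM-only transcription cofactor, had 1.84 (237 against 65.1), and the netrin receptor gene Unc5c had a bound of 2.17 (218 against 33.7).

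Bst2 encodes tetherin, a membrane protein that holds budding enveloped viruses at the cell surface. It read 795 in the knockout against 219 in the wild type, both above the array median, which is 3.57-fold higher (log2 difference 1.83). This was place 63 from the top of the 7369 genes, and it was the member past 2-fold upward whose values were both above the median. Among the genes around it, Mvb12a and Gtpbp3 had log2 differences of 0.48 and 0.18. Slc27a1 was past 2-fold higher at 1.26 (172 against 70.7), and Nxnl1 past 2-fold lower with a bound of -1.98 (30.7 against 187). Slc27a1 passed the filter through the knockout value alone and Nxnl1 through the wild-type value alone.

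Oas1a encodes a 2'-5'-oligoadenylate synthetase, which makes the activator of RNase L on sensing double-stranded RNA. It went the other way, with 415 in the knockout against 1416 in the wild type, 3.47-fold lower (log2 difference -1.80) and place 59 from the bottom. The difference kept between -1.80 and -1.76 under the 10 alternative settings. Oas2, a larger synthetase of the same cluster, read 59.8 and 158.9, 2.70-fold lower, while Oas3 (162 against 138) and Oasl1 (213 against 170) were 1.16-fold and 1.23-fold higher. Oas2 was no longer past 2-fold with a floor at the 40th percentile, and it did not enter where both values had to reach the array median. Among the synthetase genes under the filter, Oas1b read 43.7 and 84.3, Oas1e 90.5 and 30.8, and Oas1h 29.8 and 62.3, and Oas1c and Oasl2 were at the floor on both arrays. Of the OAS genes that passed, Oas1a and Oas2 were thus at least 2-fold lower and none was 2-fold higher. The log2 differences of Oas3 and Oasl1 were 0.21 and 0.30, beside the median SD of 0.22 between probe sets of 1 gene. No direction is read from these 2 genes.

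Ifitm2 and Ifitm3 encode interferon-induced transmembrane proteins that block virus entry by fusion, and Ifitm3 (fragilis) is also a marker of early germ cells. Ifitm3 read 5763 in the knockout against 5941 in the wild type, a 1.05-fold difference (log2 -0.07). Ifitm2 read 5577 and 7311, 1.33-fold lower (log2 -0.41). Ifitm1, of the same cluster on chromosome 7, read 7031 and 6102, 1.13-fold higher. All 3 had signals far above the array medians on both arrays, and none reached 2-fold. Ifitm10 (60.9 against 55.3) and Ifitm6 (12.0 against 49.7) did not reach the filter.

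**Figure D3:**
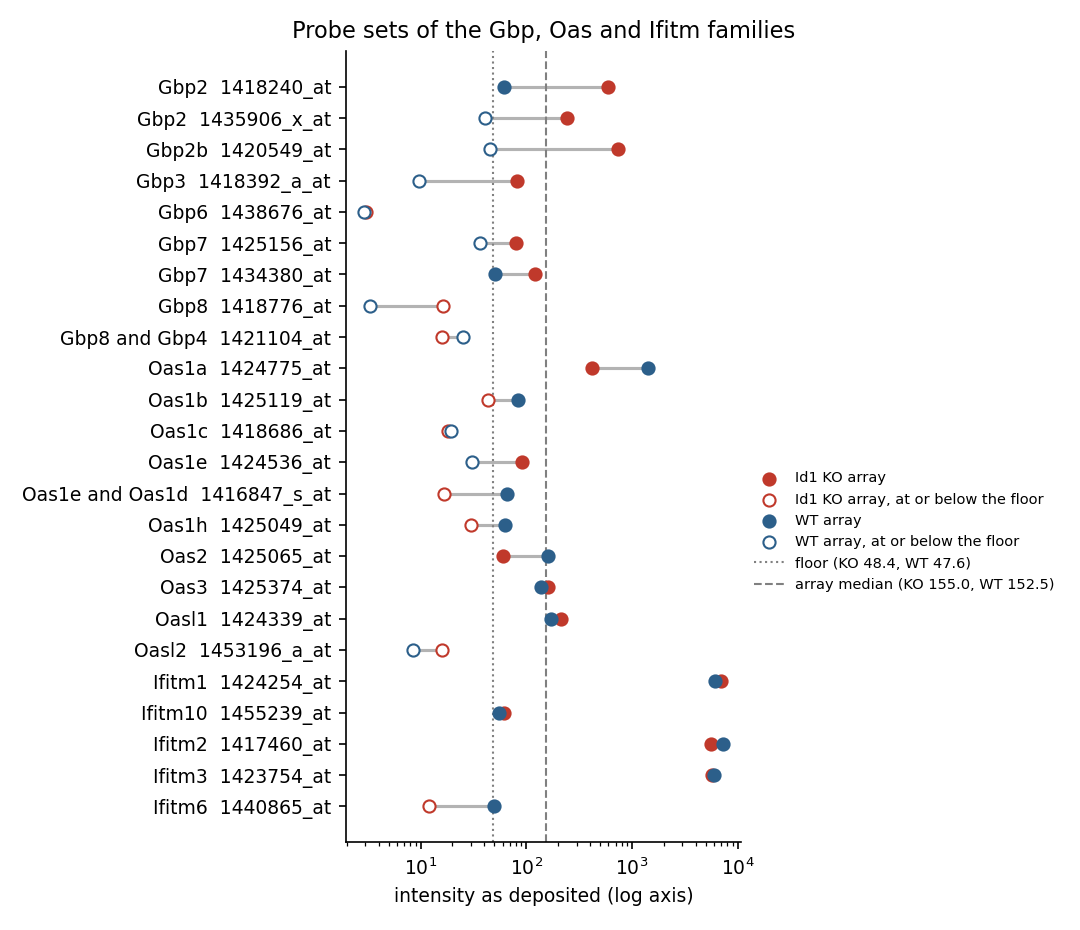
Intensity (log axis) of every probe set annotated to a Gbp, Oas or Ifitm gene on the Id1 KO array (red) and the WT array (blue), with open circles at or below the floor (dotted) and the knockout array median dashed. Gbp2 and Gbp2b were at least 2-fold higher in the knockout, Oas1a and Oas2 at least 2-fold lower, the probe sets of Gbp3 and Gbp7 stayed left of the median line, and Ifitm1, Ifitm2 and Ifitm3 lay at 5577 or more on both arrays.

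Irf1 encodes a transcription factor that activates GBP and antigen-processing genes. Its probe set read 1134 in the knockout against 738 in the wild type, 1.51-fold higher (log2 difference 0.60) and place 760 from the top. Its difference stayed between 0.59 and 0.62 under the 10 alternatives and did not reach 2-fold in any of them. Of the listed genes around it that passed the filter, Rad50 had a log2 difference of 0.47 and Kif3a of -0.20.

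**Figure D4:**
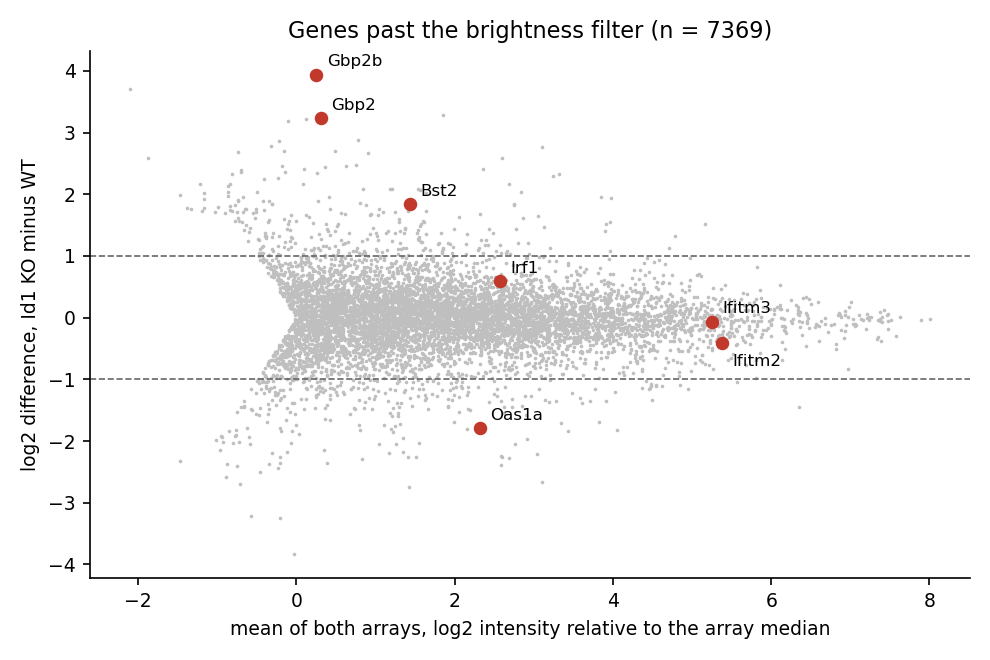
Log2 difference (Id1 KO minus WT) against the mean log2 intensity of both arrays relative to the array median, for 7369 genes past the brightness filter (grey) and the 7 members among them (red), with dashed lines at 2-fold. Gbp2b and Gbp2 stood at the upper edge of the cloud at 3.94 and 3.23, Bst2 at 1.83 and Oas1a at -1.80, and Irf1, Ifitm2 and Ifitm3 lay between the lines.

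The rest of the pathway was described with 14 gene lists. Together they held 131 other genes with a probe set, of which 58 passed the filter. Of the 58, 10 were at least 2-fold higher, 6 of them in the antigen presentation list, and 1 was at least 2-fold lower. Of all genes, 3.92% were called in each direction. The lists were chosen with earlier results of these data known, so nothing is read from those shares. The median log2 difference of the 58 was 0.19, beside -0.01 for all genes. Without the antigen presentation list, 4 of 49 were higher, 1 was lower and the median was 0.15. The 4, Ifnz, Jak2, Irgm1 and Nmi, passed the filter through the knockout value alone, as did Psmb8 and Tap2 of the antigen presentation list. None of these genes entered where both values had to reach the array median.

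The interferon ligand genes gave little signal. Of 10 with a probe set, 9 did not reach the filter, among them Ifnb1 (77.2 in the knockout, 113.9 in the wild type) and Ifng (28.9 and 41.2). Ifnz, a limitin gene of type I, read 167 and 58.4, 2.82-fold higher, but it was not past 2-fold with a floor at the 40th percentile. The receptor genes were nearly equal on both arrays. Ifnar1 and Ifnar2, the subunits of the type I receptor, had log2 differences of 0.02 and -0.14, and Ifngr1, of the interferon gamma receptor, had 0.13. Ifngr2 (101 against 139) and Il10rb (9.96 against 10.9) did not reach the filter.

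Downstream of the receptors, Jak2, a kinase bound to the gamma receptor, was 2.02-fold higher (187 against 91.0). Jak1 had a log2 difference of -0.26 and Tyk2 of -0.66. The call of Jak2 ended under 4 alternatives: a floor at the 40th percentile, a pseudocount of 16, both values at or above the median, and the mean over all its probe sets. Stat2 (113 against 99.5) and Irf9 (90.0 against 112.6), which act in the type I response, stayed below the filter. Of 7 other interferon regulatory factor genes and cofactors with a probe set, 3 passed and none reached 2-fold, with Irf3, the sensor-activated factor, at -0.01 and Irf5 at 0.05. Irf7, the amplifier of type I interferon, read 87.9 and 99.7, below the filter. None of 9 passing negative regulators reached 2-fold (median 0.14), nor did any of 3 passing nucleic acid sensor and adaptor genes (Mavs -0.36, Tbk1 0.16, Myd88 0.45) or of 7 passing NF-kB genes (median -0.17).

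Among the immunity-related GTPases, a second family of gamma-inducible GTPases, Irgm1 was 2.02-fold higher (284 against 138) and Igtp 1.95-fold higher (226 against 114). Ifi47 was 1.66-fold lower (93.5 against 153), so the 3 that passed did not share a direction in this setting. Ifi47 passed through the wild-type value alone, which lay just above that array's median of 152.5. With a brightness trend removed by lowess, 2 genes of this family passed, with a median log2 difference of 0.99. Where both values had to reach the array median, 0 passed. Irgm1 fell short of 2-fold after quantile normalization and with a pseudocount of 16. Irgm2 read 100.3 and 14.0 without reaching the filter.

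Classical interferon-stimulated genes were mostly dim. Of 34 with a probe set, 22 did not reach the filter, including Ifit1 (61.2 against 93.8), Ifit3 (74.1 against 5.95), Mx1 (15.8 against 27.5) and Cxcl10 (83.4 against 16.4). Of the 12 that passed, 1 was 2-fold higher, namely Nmi, an interferon-induced STAT partner (156 against 64.8, 2.37-fold), none was 2-fold lower, and the median was 0.28. Nmi was not past 2-fold with a floor at the 40th percentile, and like Ifnz and Irgm1 it did not enter where both values had to reach the array median. Rsad2, which encodes viperin, was 1.69-fold lower (106 against 177) and Parp9 1.88-fold higher (311 against 162). Of the enzymes that attach ISG15, the activating enzyme gene Uba7 had a log2 difference of 0.61 and the ligase gene Trim25 -0.32.

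The antigen presentation genes, many of which respond to interferon gamma, were the list with several members past 2-fold. Of 9 that passed, 6 were 2-fold higher and none was lower, with a median of 1.12. The immunoproteasome genes Psmb8 (at least 5.98-fold) and Psmb10 (2.27-fold), the class I heavy chain gene H2-D1 (2.92-fold, and 1.96-fold by its other passing probe set) and its partner B2m (2.71-fold) were among them. The count was 5 with a floor at the 40th percentile, with a pseudocount of 16 and over passing probe sets, and 4 where both values had to reach the array median. It was also 4, with a median of 0.76, over all probe sets of a gene.

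**Figure D5:**
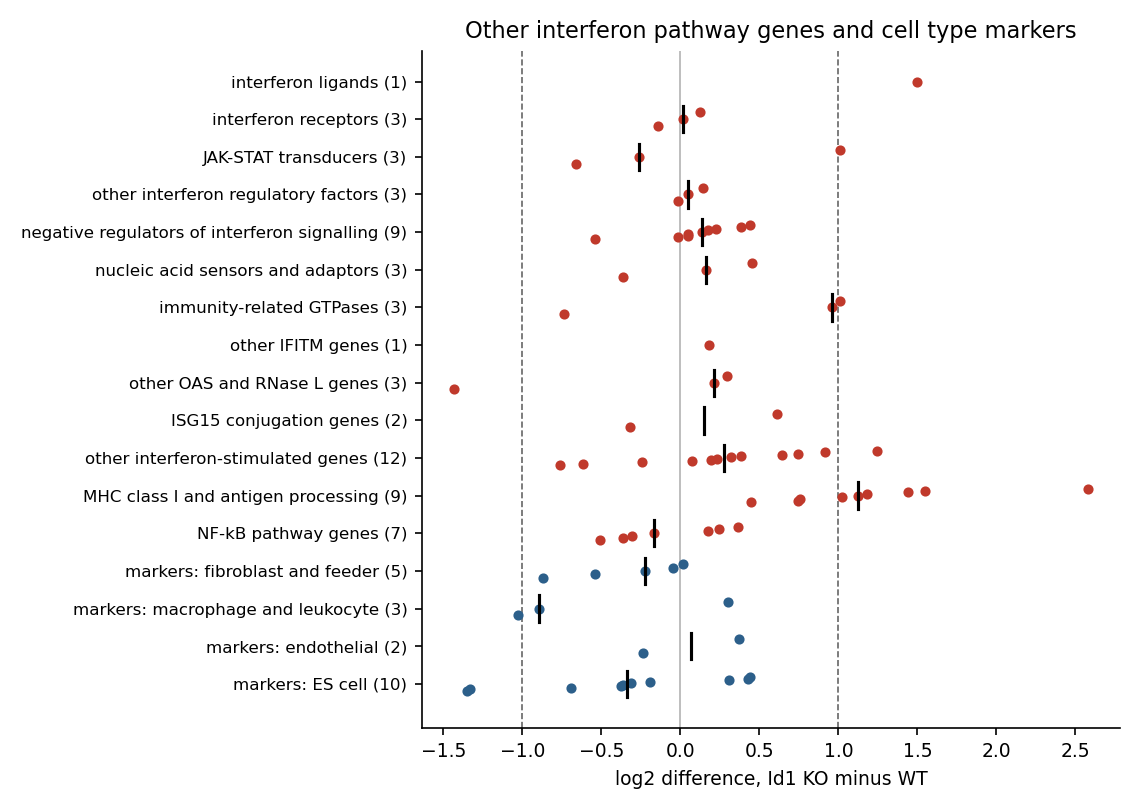
Log2 difference (Id1 KO minus WT) of each gene past the brightness filter in the pathway lists (red) and cell type marker lists (blue), with the number of genes in parentheses, a black bar at the median of lists with several genes and dashed lines at 2-fold. The 9 antigen presentation genes all lay above 0, and the receptor genes lay between -0.14 and 0.13.

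Response element letters were also searched in the promoter windows of these lists. Of genes with a window, they were found in 2 of 2 other GBP genes, 5 of 6 immunity-related GTPase genes, 11 of 20 ligand genes, 3 of 7 other OAS and RNase L genes, 9 of 30 other interferon-stimulated genes, 4 of 14 antigen presentation genes and 3 of 11 sensor and adaptor genes. They were found in 1 of 5 JAK-STAT genes, 1 of 8 other regulatory factor genes and 1 of 7 negative regulators. No match was found in 5 receptor genes, 5 other IFITM genes, 4 ISG15 conjugation genes or 13 NF-kB genes.

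Markers of other cells that respond to interferon were read on the same arrays, where fewer cells of a type and less RNA per cell cannot be told apart. Of 16 fibroblast and feeder markers, 5 passed the filter and none reached 2-fold; the summed intensity of the list was 4007 in the knockout against 5958 in the wild type, and 1644 against 1707 without Vim, which ES cells also express (2363 against 4251). Besides Vim, Col1a2 (199 against 194), Col5a1 (250 against 254), Col6a2 (318 against 366) and Thy1 (193 against 276) passed. Below the filter, Col1a1 (132.8 against 83.0), Col6a1 (115.8 against 85.4), Dcn (71.9 against 18.1), Lum (80.1 against 70.5) and Twist2 (115.0 against 89.4) read higher in the knockout. Also below it, Col3a1 (38.3 against 69.0), Fap (17.3 against 54.3) and Prrx1 (23.8 against 96.6) read lower. Postn, Pdgfra and Pdgfrb were at the floor on both arrays. Of 12 macrophage and leukocyte markers, 3 passed and 1, Laptm5, was 2.04-fold lower, a call lost with a pseudocount of 16. Csf1r passed at 183 against 146 and Cd68 at 177 against 323, and the median log2 difference of the 3 was -0.90. Below the filter, Lyz2 (152.7 against 72.3), Cd14 (116.6 against 87.1) and Tyrobp (59.8 against 40.6) read higher in the knockout. Adgre1 (74.6 against 112.4), also below the filter, read lower. The sum of the list was 1088 against 1309, and Ptprc, Itgam, Fcer1g, Aif1 and Cd52 were at the floor on both arrays. Of 8 endothelial markers, 2 passed, Tek (170 against 129) and Pecam1 (306 against 355), and none reached 2-fold. The sums of the list were 803 and 894. Below the filter, Flt1 (114.8 against 103.7) and Kdr (153.4 against 152.2) read slightly higher in the knockout, and Cdh5 (44.8 against 83.7) and Emcn (9.15 against 56.7) lower. Tie1 and Vwf were at the floor on both arrays. With a pseudocount of 16, 3 endothelial markers entered and 1 was 2-fold higher, with a median of 0.34. The mean over passing probe sets gave the same counts, with a median of 0.37. All 10 ES cell markers passed. Their sum was 58655 against 72909, and Nanog and Fgf4 were the members past 2-fold, both lower. Fgf4 was not past 2-fold as a mean over its probe sets. The part of other cells in the GBP and Bst2 values was not tested.

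The targeted gene Id1 read 461 in the knockout against 1045 in the wild type, and since the deleted part of the gene is not stated, this checks the labels only in part. The cultures also differed in sex-chromosome genes: the Y-linked Eif2s3y read 633 in the knockout against 2.04 in the wild type. Of 238 X-linked genes that passed, 197 had lower values in the knockout, and their median log2 difference over all 238 was -0.55. None of the 9 members lies on a sex chromosome. The part of this difference between the cultures in the members' values was not tested.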

How the data were processed

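The data were 2 single-channel arrays of biotin-labelled total RNA. The authors deposited linear intensities for 22690 probe sets, 64 of them controls; the software behind them is not given in these sources, and detection calls and scanner files were not used. Both arrays had a mean of 500.2 after 2% was trimmed from each end, so the deposited intensities had been scaled to each other. The platform annotation gave 20380 probe sets 1 symbol, 691 several and 1555 none.

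Values were centred, floored, filtered and summarised per gene as given in the report, with Python 3.11.15, pandas 2.3.3 and numpy 2.4.6, and the procedure was tested on simulated data. Lowess in 1 alternative used statsmodels 0.14.6 with a span of 0.3. Each array stands for 1 genotype, so no test was run, and the number of arrays limits the precision. Members and lists were chosen with earlier results of these data known. All members were named whatever their value, with list genes past 2-fold (up to 4 in each direction), the receptors, JAK kinases, Stat2 and Irf9. Other genes named were chosen after their values were seen. RefSeq tables of GRCm38.p6 gave gene order and promoters. Gene identifiers of 20351 probe sets matched it. Alternatives covered centring, floor, filter and the choice of probe set.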

Additional observations from a re-analysis of the deposited data

Results flagged for a closer look

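The probe set annotated to both Isg15 and Gm9706 was left out of the comparison because it cannot be assigned to 1 gene. It was singled out because it carried signal above the floor on both arrays outside the counted probe sets, and its knockout value exceeded its wild-type value, at 70.9 against 61.1 (log2 difference 0.19). Both values were below the array medians, and the difference was smaller than the median SD of 0.22 between probe sets of 1 gene.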

How the results depend on the processing

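The count of members 2-fold higher was 3 under 9 of 10 alternatives, and that of members 2-fold lower was 1 under all 10. Where both values had to reach the array median, 5 members entered and 1 (Bst2) was higher, since Gbp2 and Gbp2b were dim in the wild type; Oas1a was still lower. Over all genes, 435 were higher and 443 lower without a brightness filter, and 134 and 153 where both values had to reach the median, against 289 and 289 as reported. Without X- and Y-linked genes, 280 were higher and 238 lower. Gbp2 ranged from 2.54 to 3.26, Gbp2b from 2.87 to 4.01 and Gbp3 from 0 to 2.62 on the log2 scale. Floor, pseudocount and, for Gbp2, the mean over probe sets moved these values. Bst2 stayed between 1.76 and 1.86, Ifitm2 between -0.41 and -0.35 and Ifitm3 between -0.07 and -0.02. Among the member differences and list results, 553 of 595 alternative values stayed within 0.22 (log2 differences and medians) or 1.5 times (counts) of the reported one and 42 did not. No member past 2-fold changed sign, but list medians near 0 did in 7 of these values, in 4 lists: receptors, negative regulators, ISG15 conjugation and endothelial markers. No paired analysis was possible because each genotype had 1 array. Signals near the floor limit what the GBP folds can show.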
